A study of Drosophila melanogaster with 53 samples.

Results

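The genes described here encode the machinery that starts and carries out transcription by RNA polymerase II (Pol II): the polymerase subunits, the TAF proteins of TFIID, the general factors TFIIA, TFIIB, TFIIE and TFIIF, the elongation factor TfIIS, and Mediator with its kinase module. They were chosen by name, as every row of the gene table whose symbol begins with MED, Taf, TfII, RpII or Rpb followed by a number where one applies, together with skd, kto, CycC and Cdk8. This gave 64 genes of 15598. Of these, 12 encode Pol II subunits, 12 TAFs, 7 general factors, 1 TfIIS and 29 Mediator subunits, while 2 are paralogues of low expression (Taf12L and TfIIA-S-2) and 1, RpIII128, encodes the second-largest subunit of RNA polymerase III and entered through its symbol. The Pol II genes carry Polr2 symbols in the current FlyBase naming, and the symbols of the deposited table are used here.

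The study examined the part of the pausing factor NELF in transcription that the steroid 20-hydroxyecdysone (20E) induces, in developing Drosophila and in Schneider S2 cells, a hemocyte-like line derived from embryos. For RNA sequencing, 2 libraries of polyA RNA came from cells given 0.3 μM 20E for 1 h, and 2 came from cells given the solvent DMSO for 1 h. Neither group had received double-stranded RNA. The deposited tables hold 1 value per gene and condition, so the 2 libraries of a condition cannot be compared with each other and no difference below carries a test.

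Values are FPKM, numbers of sequenced fragments scaled for transcript length and library size, each with a lower and an upper confidence bound whose level is not stated. Change is given as log2 of (20E FPKM + 1) over (DMSO FPKM + 1), which understates the change of genes at low FPKM. Numbers of reads were not available from these values, so the depth behind them is unknown. The hormone response was present in the table, in genes chosen after their values were seen. The transcription factor gene vri had 126 FPKM in 20E and 12.8 FPKM in DMSO. EcR, the ecdysone receptor gene, had 37.4 FPKM in 20E and 14.3 FPKM in DMSO. Its partner gene usp, looked at alongside, hardly differed, with 36.9 FPKM in 20E and 35.0 FPKM in DMSO. Of the hemocyte markers, Pxn had 96.9 FPKM in 20E and 93.3 FPKM in DMSO, srp had 115.2 FPKM in 20E and 106 FPKM in DMSO, and Hml stood near 0 in both, with 0.0944 FPKM in 20E and 0.104 FPKM in DMSO. vkg was low, with 3.17 FPKM in 20E and 3.24 FPKM in DMSO. He, with 2.52 FPKM in 20E (bounds 0.745 to 4.29) and 4.11 FPKM in DMSO (bounds 1.80 to 6.43), was the only one of the 5 past the limits used below, at a log2 change of -0.54. The neuronal marker elav was at 3.66 FPKM in 20E and 3.63 FPKM in DMSO, and Mhc, vas and Lsp2 were under 0.2 FPKM in both.

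Pol II reads genes that encode proteins, but it cannot find a promoter alone. TFIID, made of the TATA-binding protein and the TAFs, recognises core promoter DNA, and TFIIA, TFIIB, TFIIE, TFIIF and TFIIH assemble around it with the polymerase. Mediator bridges factors bound at enhancers to this assembly. Its head and middle modules contact Pol II, its tail contacts activators, MED14 holds the modules together, and the kinase module (Cdk8, CycC, kto and skd, the fly MED12 and MED13) attaches reversibly and hinders the contact with Pol II. Whether ecdysone-dependent genes in S2 cells need each of these parts was not tested here.

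The promoters of these genes were read first, since they show a feature that the choice by name did not use. A window from 250 bases upstream to 50 bases downstream of the annotated start was taken for each gene from the Release 6 genome, using the transcript with the highest DMSO FPKM, and all 64 genes had one. An element known as Ohler motif 1 is common at start sites of broadly expressed fly genes. Its core GGTCACAC, searched on both strands, lay in 16 of the 64 windows (25%), against 7.15% of all 14862 windows and 13.9% of the 7261 of expressed genes, meaning those whose 2 FPKM values average 1 or more. In 14 of the 64 (21.9%) it began within 20 bases of the start, against 6.78% of the windows of expressed genes and 3.36% of all windows. All 14 copies lay in the direction of transcription, as did 93.1% of the copies so placed in expressed genes. The 14 genes comprised 8 of Mediator (MED8, MED11, MED15, MED19, MED20, MED22, MED23 and MED24), 3 of Pol II (RpII15, Rpb7 and Rpb10) and 3 of TFIID (Taf1, Taf4 and Taf5), and none of the 7 general factor genes. A match describes letters and is not evidence of binding.

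Bases -30 to +30 around the start are shown for 5 of these genes, to let the placing of the element be compared between complexes. Each has the highest DMSO FPKM of its complex or Mediator module among the genes with a core so placed. The core is in capitals. It begins at base 9 in Rpb10 and MED19, at 12 in Taf4, at 7 in MED15 and at -7 in MED22, and a t follows it in every one.
Rpb10, Pol II (chr3R:24717481-24717540, + strand): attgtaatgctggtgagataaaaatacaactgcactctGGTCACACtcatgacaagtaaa
Taf4, TFIID (chr3L:16113182-16113241, + strand): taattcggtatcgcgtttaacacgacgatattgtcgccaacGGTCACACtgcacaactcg
MED22, Mediator head (chrX:928109-928168, + strand): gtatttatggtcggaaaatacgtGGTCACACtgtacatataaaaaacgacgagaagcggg
MED19, Mediator middle (chr3L:17846472-17846531, - strand): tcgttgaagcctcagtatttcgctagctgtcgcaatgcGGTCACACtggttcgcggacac
MED15, Mediator tail (chr2L:472983-473042, + strand): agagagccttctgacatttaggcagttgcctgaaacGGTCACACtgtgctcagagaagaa

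The DNA replication-related element DRE, TATCGATA, is another sequence of housekeeping promoters and reads the same on both strands. It lay in 12 of the 64 windows (18.8%), against 15.6% of those of expressed genes and 8.34% of all. Mediator genes held 8 of the 12, Pol II genes 2 (Rpb4 and Rpb10), TFIID 1 (Taf7) and general factors none, and the remaining one was RpIII128. Rpb4, Rpb10 and MED8 held both elements. MED28 was the only gene of the set with more than 1 copy of DRE. Its copies, in capitals, begin at -77 and -42.
MED28, bases -87 to -25 (chr3R:25476916-25476978, + strand): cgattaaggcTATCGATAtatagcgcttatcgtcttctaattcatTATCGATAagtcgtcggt

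The other motifs were not more frequent here than among expressed genes by any wide margin. TATAAA on either strand was in 50% of the 64 windows and in 45.5% of those of expressed genes. The initiator core TCAGT was in 32.8% of the 64, against 47.0% of expressed genes, and the E-box CAGCTG in 15.6% against 23.0%. These motifs were counted anywhere in the window and on either strand, so the counts do not describe elements placed at the start. The inner part of a palindromic ecdysone response element, GTCANTGAC, was in 0 of the 64 windows and in 0.179% of those of expressed genes. At that frequency its absence from 64 windows says nothing about the receptor.

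The machinery genes were expressed well in both conditions. Their median was 41.8 FPKM in 20E and 39.9 FPKM in DMSO, against 27.5 FPKM in 20E and 27.1 FPKM in DMSO for the 7617 expressed genes, and the DMSO median stood at percentile 81.5 of all genes. Of the 64, 63 had a mean of at least 1 FPKM. Together they made up 0.447% of the summed FPKM of all genes in 20E and 0.450% in DMSO. Levels varied much more between genes than between conditions.

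**Figure D1:**
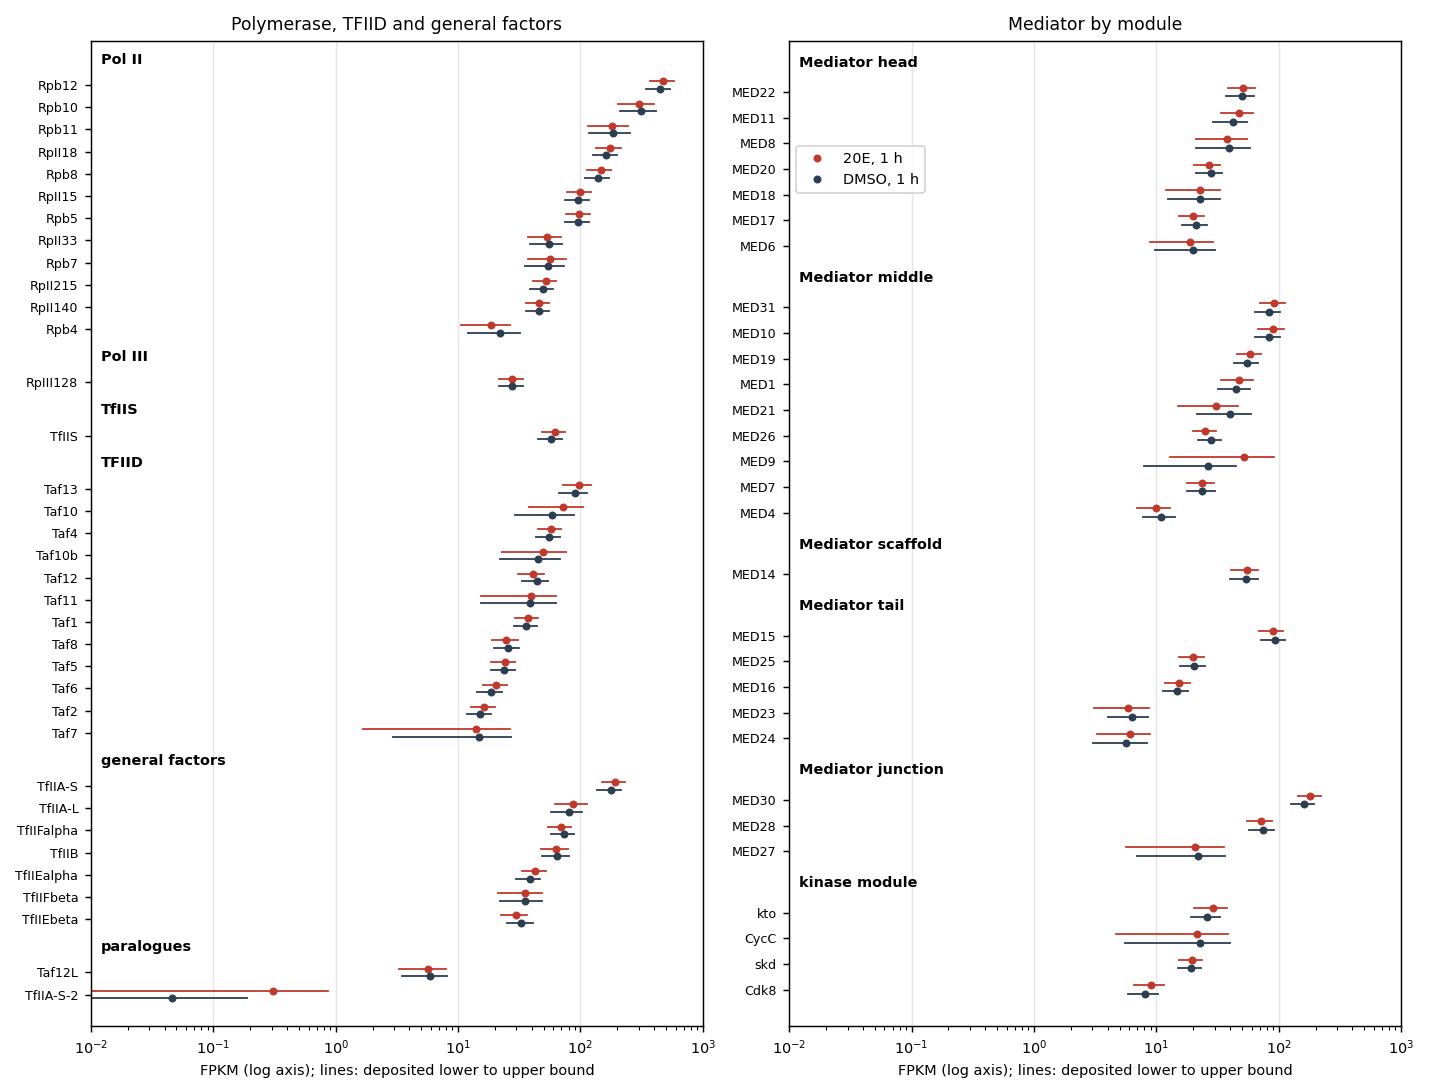
FPKM of each of the 64 genes (log axis), grouped by complex, with 20E in red above DMSO in dark blue and a line spanning the deposited lower to upper bound. Levels run over 25.6-fold in 20E and 20.1-fold in DMSO within Pol II, from Rpb4 to Rpb12. The level of Rpb4 is uncertain, as its exon bases are all shared with Ada2a. The red and blue lines of each gene overlap in all 64.

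Pol II subunits had the highest median of the complete complexes, 98.3 FPKM in 20E and 96.1 FPKM in DMSO. They spanned 25.6-fold in 20E and 20.1-fold in DMSO. The lower end of this span rests on Rpb4 alone, whose exon bases are all shared with another gene, Ada2a. The next lowest was RpII140. RpII215, the largest subunit with the repeated C-terminal domain, had 51.9 FPKM in 20E (bounds 40.6 to 63.2) and 49.4 FPKM in DMSO (bounds 38.6 to 60.2). RpII140, the second-largest subunit, had 45.9 FPKM in 20E (bounds 36.0 to 55.7) and 45.8 FPKM in DMSO (bounds 36.0 to 55.6). RpII33, the fly Rpb3 and the subunit whose antibody marks Pol II in the study's chromatin experiments, had 53.2 FPKM in 20E (bounds 37.0 to 69.4) and 54.9 FPKM in DMSO (bounds 38.7 to 71.1). These 3 core genes thus lay close to each other, with overlapping bounds in either condition.

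Several small subunits stood higher. Rpb12, a small zinc-binding subunit, was the highest of all 64 genes with 474 FPKM in 20E (bounds 369 to 578) and 444 FPKM in DMSO (bounds 346 to 542). The 5 subunits that Pol II shares with polymerases I and III (Rpb5, RpII18, Rpb8, Rpb10 and Rpb12) had a median of 174 FPKM in 20E and 163 FPKM in DMSO, with Rpb5 the lowest at 97.2 FPKM in 20E and 96.0 FPKM in DMSO. RpII18, the fly Rpb6, had 174 FPKM in 20E and 163 FPKM in DMSO, and Rpb8 had 146 FPKM in 20E and 139.9 FPKM in DMSO. The 7 that it does not share had a median of 53.2 FPKM in 20E and 54.6 FPKM in DMSO, but Rpb11, which pairs with RpII33, reached 180 FPKM in 20E and 185 FPKM in DMSO, so the 2 sets overlapped. Rpb4 was the lowest of Pol II with 18.5 FPKM in 20E (bounds 10.5 to 26.4) and 22.1 FPKM in DMSO (bounds 12.0 to 32.1). Its partner in the polymerase stalk, Rpb7, had 56.7 FPKM in 20E (bounds 37.1 to 76.3) and 54.6 FPKM in DMSO (bounds 35.2 to 73.9), above the bounds of Rpb4 in both conditions. RpII15, the fly Rpb9, had 99.3 FPKM in 20E and 96.1 FPKM in DMSO. The Pol III gene RpIII128 stood at 27.7 FPKM in 20E and 27.8 FPKM in DMSO, below every Pol II subunit but Rpb4.

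TFIID genes were lower and closer together, with a median of 38.3 FPKM in 20E and 37.6 FPKM in DMSO. Taf13, a histone-fold TAF, was the highest with 96.8 FPKM in 20E (bounds 71.6 to 122) and 90.2 FPKM in DMSO (bounds 66.6 to 114). Its histone-fold partner Taf11 had 39.6 FPKM in 20E (bounds 15.4 to 63.7) and 39.0 FPKM in DMSO (bounds 15.3 to 62.8). Taf7, which binds Taf1, was the lowest with 14.1 FPKM in 20E (bounds 1.66 to 26.6) and 14.9 FPKM in DMSO (bounds 2.94 to 26.9). The large subunit Taf1, scaffold of the complex, had 37.1 FPKM in 20E and 36.2 FPKM in DMSO, and Taf4, which pairs with Taf12, had 57.3 FPKM in 20E and 55.5 FPKM in DMSO. Below them came Taf8 with 24.8 FPKM in 20E and 25.6 FPKM in DMSO, Taf5 with 24.0 FPKM in 20E and 23.8 FPKM in DMSO, and Taf2, which contacts the initiator, with 16.3 FPKM in 20E and 15.2 FPKM in DMSO. Highest and lowest TAFs differed 6.84-fold in 20E and 6.05-fold in DMSO.

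Some TFIID subunits have fly names that the choice by symbol did not reach, and they are given here for the complex to be complete, chosen after their values were seen except for Tbp. The TATA-binding protein gene Tbp had 25.7 FPKM in 20E (bounds 10.6 to 40.7) and 23.4 FPKM in DMSO (bounds 9.31 to 37.5). bip2, the fly TAF3, had 47.2 FPKM in 20E and 52.8 FPKM in DMSO, and e(y)1, the fly TAF9, had 87.8 FPKM in 20E and 78.8 FPKM in DMSO. All lay within the range of the 12 TAFs.

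Taf12L and TfIIA-S-2 stood well below their paralogues Taf12 and TfIIA-S. Taf12 had 40.8 FPKM in 20E (bounds 30.9 to 50.6) and 43.8 FPKM in DMSO (bounds 33.3 to 54.4), whereas Taf12L had 5.64 FPKM in 20E (bounds 3.30 to 7.97) and 5.84 FPKM in DMSO (bounds 3.49 to 8.19). TfIIA-S, the small TFIIA subunit, had 191 FPKM in 20E (bounds 150 to 233) and 176 FPKM in DMSO (bounds 138 to 215). TfIIA-S-2 had 0.306 FPKM in 20E (bounds 0 to 0.868) and 0.0462 FPKM in DMSO (bounds 0 to 0.189), and both intervals reach 0. Taf10 and Taf10b, the remaining pair among the chosen genes, were both expressed, with overlapping bounds in either condition. They are described with their shared locus.

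General factor genes had a median of 63.0 FPKM in 20E and 64.8 FPKM in DMSO. TfIIA-S was the highest of them, and TfIIEbeta, a subunit of the factor that brings in TFIIH, was the lowest with 29.6 FPKM in 20E (bounds 22.5 to 36.8) and 33.0 FPKM in DMSO (bounds 25.1 to 40.8). TfIIB, which links TBP to the polymerase, had 63.0 FPKM in 20E and 64.8 FPKM in DMSO. TfIIS, which helps a backtracked polymerase to resume, had 61.8 FPKM in 20E and 57.6 FPKM in DMSO. The partner subunits of TFIIF differed, with TfIIFalpha at 69.5 FPKM in 20E and 73.3 FPKM in DMSO, and TfIIFbeta at 34.9 FPKM in 20E and 35.2 FPKM in DMSO.

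Mediator genes had the lowest median of the complexes, 26.7 FPKM in 20E and 26.4 FPKM in DMSO, close to that of all expressed genes. Their levels differed by module. The head module was the most even, from MED6 with 19.01 FPKM in 20E (bounds 8.87 to 29.1) and 19.9 FPKM in DMSO (bounds 9.75 to 30.0) to MED22 with 51.3 FPKM in 20E (bounds 38.5 to 64.2) and 49.8 FPKM in DMSO (bounds 37.3 to 62.3), a 2.70-fold span in 20E and a 2.51-fold span in DMSO. MED17, the large scaffold of the head, had 19.8 FPKM in 20E and 20.9 FPKM in DMSO. MED8, MED18 and MED20 lay between 22.6 and 38.04 FPKM in 20E and between 22.7 and 39.5 FPKM in DMSO.

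The middle module had a median of 47.5 FPKM in 20E and 40.4 FPKM in DMSO. MED31 was its highest gene with 91.6 FPKM in 20E (bounds 69.9 to 113) and 83.8 FPKM in DMSO (bounds 64.5 to 103), and MED4 its lowest with 10.0 FPKM in 20E (bounds 6.98 to 13.0) and 10.98 FPKM in DMSO (bounds 7.74 to 14.2). MED1, a contact of nuclear receptors in mammals, had 47.5 FPKM in 20E (bounds 33.7 to 61.4) and 45.1 FPKM in DMSO (bounds 31.9 to 58.3). MED10 had 89.0 FPKM in 20E and 83.1 FPKM in DMSO, MED19 had 58.4 FPKM in 20E and 55.5 FPKM in DMSO, and MED7 had 23.8 FPKM in both. MED14, the backbone that joins the modules, had 54.6 FPKM in 20E (bounds 41.0 to 68.2) and 54.1 FPKM in DMSO (bounds 39.99 to 68.3).

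The tail was the least even of the larger modules. MED15, a target of activators in yeast, had 89.2 FPKM in 20E (bounds 69.3 to 109) and 92.4 FPKM in DMSO (bounds 71.5 to 113). The other 4 tail genes were lower, MED25 with 19.9 FPKM in 20E and 20.3 FPKM in DMSO and MED16 with 15.2 FPKM in 20E and 14.6 FPKM in DMSO. MED24 had 6.13 FPKM in 20E (bounds 3.30 to 8.95) and 5.69 FPKM in DMSO (bounds 3.02 to 8.36), and MED23 had 5.88 FPKM in 20E (bounds 3.11 to 8.66) and 6.30 FPKM in DMSO (bounds 4.05 to 8.56). Which of the 2 was lowest differed between conditions, and their bounds overlapped. The span of the tail was 15.2-fold in 20E and 16.2-fold in DMSO, and it rests on MED15 alone.

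Among the 3 subunits placed between head and tail, MED30 was the highest Mediator gene with 182 FPKM in 20E (bounds 143 to 221) and 161 FPKM in DMSO (bounds 126 to 195). MED28 had 71.4 FPKM in 20E and 74.5 FPKM in DMSO, and MED27 had 20.6 FPKM in 20E (bounds 5.64 to 35.6) and 21.8 FPKM in DMSO (bounds 6.98 to 36.7). ix, the fly MED29, belongs beside them by structure but not by symbol, and had 29.1 FPKM in 20E (bounds 21.5 to 36.7) and 24.6 FPKM in DMSO (bounds 17.99 to 31.2).

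The kinase module genes lay low and near each other. kto, the fly MED12, had 29.0 FPKM in 20E (bounds 20.4 to 37.6) and 26.1 FPKM in DMSO (bounds 19.3 to 32.9). CycC, the cyclin, had 21.5 FPKM in 20E (bounds 4.67 to 38.4) and 22.8 FPKM in DMSO (bounds 5.58 to 39.98). skd, the fly MED13, had 19.5 FPKM in 20E (bounds 15.4 to 23.6) and 19.2 FPKM in DMSO (bounds 15.1 to 23.3). Cdk8, the kinase itself, was the lowest with 9.03 FPKM in 20E (bounds 6.58 to 11.5) and 8.14 FPKM in DMSO (bounds 5.89 to 10.4), and in both conditions its upper bound lay under the lower bounds of kto and skd but not of CycC.

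Subunits of one complex thus differed in FPKM, to an extent that varied between complexes. The span was 6.46-fold in 20E and 5.35-fold in DMSO for the general factors. It was 6.84-fold in 20E and 6.05-fold in DMSO for TFIID. For Pol II it was 25.6-fold in 20E and 20.1-fold in DMSO, with the uncertain Rpb4 as the lowest gene. In the proteasome, another large complex, 28 expressed genes had a median of 203 FPKM in 20E and 195 FPKM in DMSO and spanned 4.45-fold in 20E and 4.06-fold in DMSO, once the paralogues Rpt3R and Rpt6R were set aside. With these 2 the span was 16.4-fold in 20E and 13.3-fold in DMSO. Part of the ordering went with gene length. Across the 63 machinery genes with a mean of at least 1 FPKM, the longest annotated coding length and the FPKM had a Spearman correlation of -0.455 in 20E and -0.454 in DMSO, against -0.172 in 20E and -0.171 in DMSO over 7136 expressed genes. Within Pol II it was -0.81 in 20E and -0.80 in DMSO over 12 genes, within TFIID -0.60 in either over 12, and within Mediator -0.37 in 20E and -0.34 in DMSO over 29. The points share their libraries and the length correction of FPKM, and genes are not replicates, so these are descriptions.

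**Figure D2:**
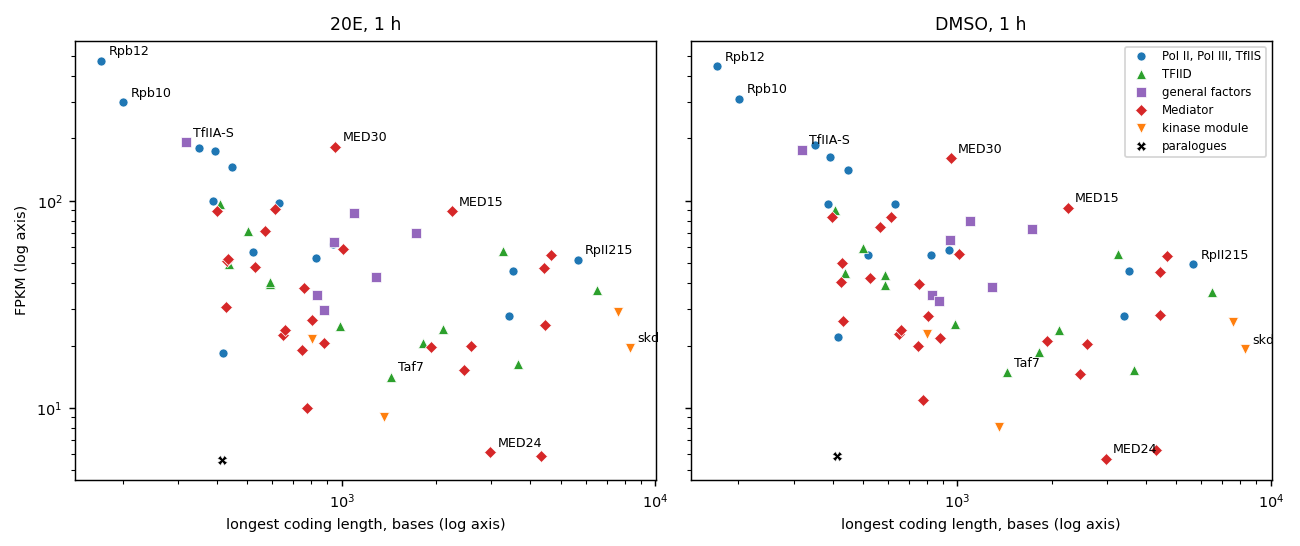
Longest annotated coding length in bases against FPKM (both log axes) for the 63 genes with a mean of at least 1 FPKM, with 20E in the left panel and DMSO in the right, marked by complex. Short Pol II genes such as Rpb12 and Rpb10 sit at the top, while MED15 and MED30 lie above and MED24 lies below other Mediator genes of like length.

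The 21 machinery genes with a coding length under 600 bases had a median of 71.4 FPKM in 20E and 58.9 FPKM in DMSO, and the 42 longer ones 28.3 FPKM in 20E and 27.9 FPKM in DMSO. Over expressed genes the same split gave 53.5 FPKM in 20E and 54.1 FPKM in DMSO for 1112 short genes, and 25.6 FPKM in 20E and 25.5 FPKM in DMSO for 6024 longer ones. What part of the order is owed to length was not tested.

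After 1 h of 20E the machinery genes stayed close to their DMSO levels. On the FPKM + 1 scale, only MED9 was more than 25% higher in 20E than in DMSO (1 of 64), against 2.49% of all 15598 genes, and only MED21 was at a ratio of 20E to DMSO under the reciprocal limit of 0.8 (1 of 64), against 2.01% of all genes. None of the 64 was more than 2-fold higher, against 0.295% of all genes, and none was more than 2-fold lower, against 0.0321%. No gene had deposited intervals that were apart: 0 of 64 had the 20E interval wholly above the DMSO interval, against 0.43% of all genes, and 0 of 64 had it wholly below, against 0.0769%. TfIIA-S-2 lay just inside the upper limit with a log2 change of 0.32, on values whose bounds reach 0. With 64 genes, counts of 0 and 1 lie near what these shares give, and the machinery is not set apart from other genes by them.

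The sizes of the differences were like those of all genes within the machinery genes' range of DMSO FPKM. This range is wide, taking in 6313 of the 7617 expressed genes, and genes were not matched singly by level. The median log2 change was 0.02 over the 64 genes and 0.00 over all genes, with 36 genes higher and 28 lower in 20E. Of the 63 expressed machinery genes, 55.6% were higher, against 51.6% of the 6313 genes within their range of DMSO FPKM. The median size of the log2 change, sign aside, was 0.0724 for the 63 expressed machinery genes and 0.0734 for the 6313 genes within their range of DMSO FPKM. It was within 0.2 in 59 of the 63 (93.7%), and in 87.3% of the genes in that range. By complex, the median log2 change was 0.03 for Pol II (8 of 12 higher in 20E) and 0.04 for TFIID (9 of 12 higher). It was -0.01 for the general factors (3 of 7 higher) and 0.00 for Mediator (14 of 29 higher). Over the 7617 expressed genes 50.9% were higher, and whether any complex departs from that share was not tested.

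**Figure D3:**
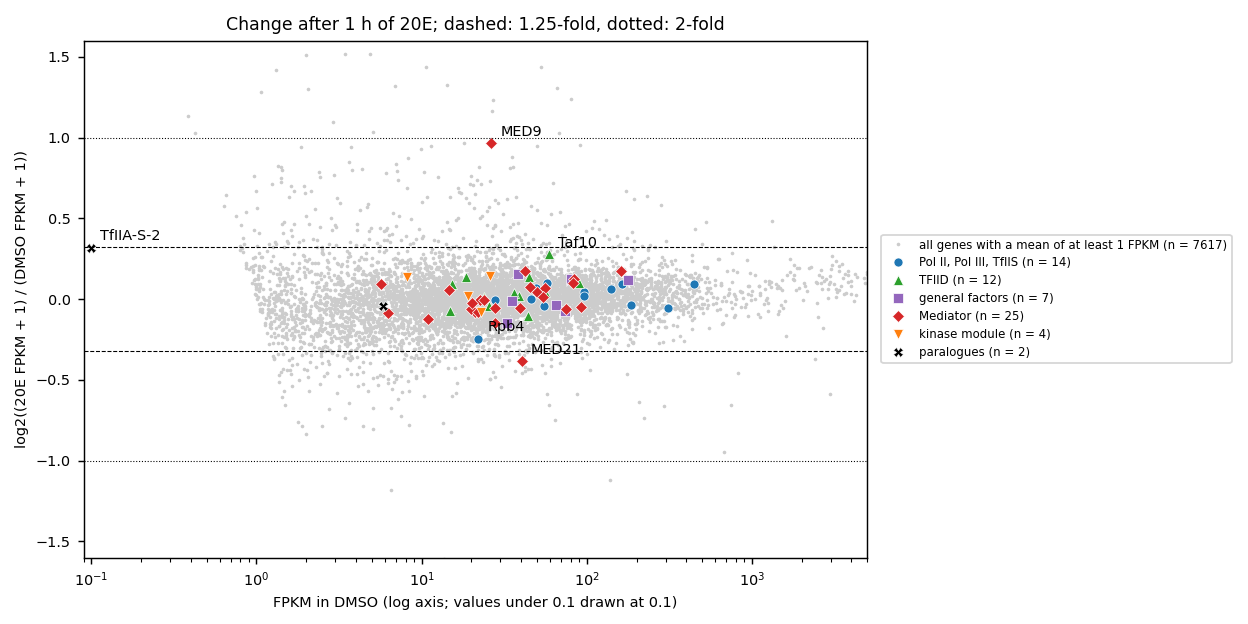
FPKM in DMSO (log axis) against log2 of (20E FPKM + 1) over (DMSO FPKM + 1) for the 64 machinery genes by complex and, in grey, the 7617 genes with a mean of at least 1 FPKM, with dashed lines at 25% higher and at a ratio of 0.8 and dotted lines at 2-fold. MED9 at 0.97 and MED21 at -0.39 are the only coloured marks past the dashed lines, and 24 grey genes above and 2 below the frame at 1.6 are not drawn, nor are 23 to its right.

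Core genes illustrate how small the differences were. The log2 change was 0.07 for RpII215, 0.00 for RpII140 and -0.04 for RpII33. In the kinase module it was 0.15 for kto, 0.13 for Cdk8, 0.02 for skd and -0.08 for CycC, and all 4 genes had overlapping bounds. MED1 changed by 0.07 and MED14 by 0.01.

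After MED9 and Taf10, the largest positive differences among genes with a mean of at least 1 FPKM were those of MED30 (0.18), MED11 (0.18), TfIIEalpha (0.15), kto (0.15), Taf6 (0.14) and Taf10b (0.14). MED11, a small head subunit, had 47.8 FPKM in 20E (bounds 33.5 to 62.1) and 42.2 FPKM in DMSO (bounds 29.2 to 55.2). TfIIEalpha, the larger TFIIE subunit, had 42.8 FPKM in 20E (bounds 33.3 to 52.3) and 38.4 FPKM in DMSO (bounds 29.8 to 46.9). Taf6, a histone-fold TAF, had 20.6 FPKM in 20E (bounds 15.9 to 25.3) and 18.6 FPKM in DMSO (bounds 14.3 to 23.0). In each of these genes the value of either condition lay inside the bounds of the other.

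After MED21 and Rpb4, the largest negative differences were those of TfIIEbeta (-0.15), MED26 (-0.15), MED4 (-0.12), Taf12 (-0.10), MED23 (-0.09) and MED27 (-0.08). The TFIIE subunits therefore stood on opposite sides of 0, TfIIEalpha at 0.15 and TfIIEbeta at -0.15. MED26, which links Mediator to elongation factors in human cells, had 25.2 FPKM in 20E (bounds 19.8 to 30.6) and 28.0 FPKM in DMSO (bounds 22.0 to 34.0). These values too lay inside the bounds of the other condition.

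The genes with the largest differences shared their genomic locus with another gene. In the deposited table, 35 of the 64 genes carry a locus that at least 1 other gene carries too, and 29 stand alone. Sharing is common: among all genes with at least 10 FPKM in DMSO, 2681 share a locus and 3217 stand alone. MED9, MED21, Rpb4 and Taf10, which had the largest differences of the genes with a mean of at least 1 FPKM, are all among the 35. No gene of the 29 was past the limits of 25% higher or a ratio of 0.8. Over all 15598 genes, 2.49% and 2.01% were past them. With 29 genes, none past the limits lies near what these shares give. Whether sharing a locus goes with larger differences was not tested.

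MED9, a middle module subunit, had 52.5 FPKM in 20E (bounds 13.0 to 92.0) and 26.4 FPKM in DMSO (bounds 7.92 to 44.8), a log2 change of 0.97. Its locus (2R, 14054731 to 14055885 in the table, whose sequence names are those of Release 5) also holds CG42518. CG42518 had 37.1 FPKM in 20E (bounds 0 to 78.7) and 59.1 FPKM in DMSO (bounds 36.4 to 81.8), a log2 change of -0.66, opposite in sign to MED9. Summed over both genes, the locus had 89.6 FPKM in 20E and 85.5 FPKM in DMSO, a ratio of 1.05. In the BDGP6 annotation all 871 exon bases of MED9 are also exon bases of CG42518 on the same strand (100%). How reads of the shared bases were divided between the genes in each condition was not tested, and the value of MED9 alone is uncertain for this reason.

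MED21, which pairs with MED7 in the middle module, had 30.7 FPKM in 20E (bounds 15.04 to 46.3) and 40.4 FPKM in DMSO (bounds 21.5 to 59.2), a log2 change of -0.39. It lies at 593049 to 601402 of 3LHet, a heterochromatic sequence of Release 5, in a locus with Set1, a histone methyltransferase gene. Set1 had 16.1 FPKM in 20E and 18.7 FPKM in DMSO. Here both genes were lower in 20E, and the sum was 46.7 FPKM in 20E and 59.1 FPKM in DMSO, a ratio of 0.791. In BDGP6, 257 exon bases of MED21 (26.6%) lie opposite exons of Set1 on the other strand, and whether the counting used strand is not given in the sources used here.

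Rpb4 had the next largest negative difference, -0.24 on the log2 scale. All of its 722 exon bases (100%) are exon bases of Ada2a on the same strand, a gene for an adaptor of histone acetyltransferases. Ada2a had 10.7 FPKM in 20E and 10.4 FPKM in DMSO. The sum of the locus was 29.2 FPKM in 20E and 32.5 FPKM in DMSO, a ratio of 0.8996. How reads of the shared bases were divided was not tested, so the level of Rpb4 and its contrast with Rpb7 are uncertain. Rpb4 and MED9 were the only ones of the 35 genes whose exons were found wholly shared. For Taf11 this could not be measured, because its locus partner zf30C is missing from the BDGP6 annotation.

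Taf10 had 71.6 FPKM in 20E (bounds 37.7 to 106) and 58.9 FPKM in DMSO (bounds 29.2 to 88.6), a log2 change of 0.28. Its paralogue Taf10b stood in the same locus with 49.6 FPKM in 20E (bounds 23.0 to 76.2) and 45.0 FPKM in DMSO (bounds 22.0 to 68.0), and colt, a mitochondrial carrier gene, with 76.7 FPKM in 20E and 74.4 FPKM in DMSO. No exon base of Taf10 is shared with Taf10b, and 3.46% are shared with colt. All 3 genes of the locus were higher in 20E, and their sum was 198 FPKM in 20E and 178 FPKM in DMSO, a ratio of 1.11.

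**Figure D4:**
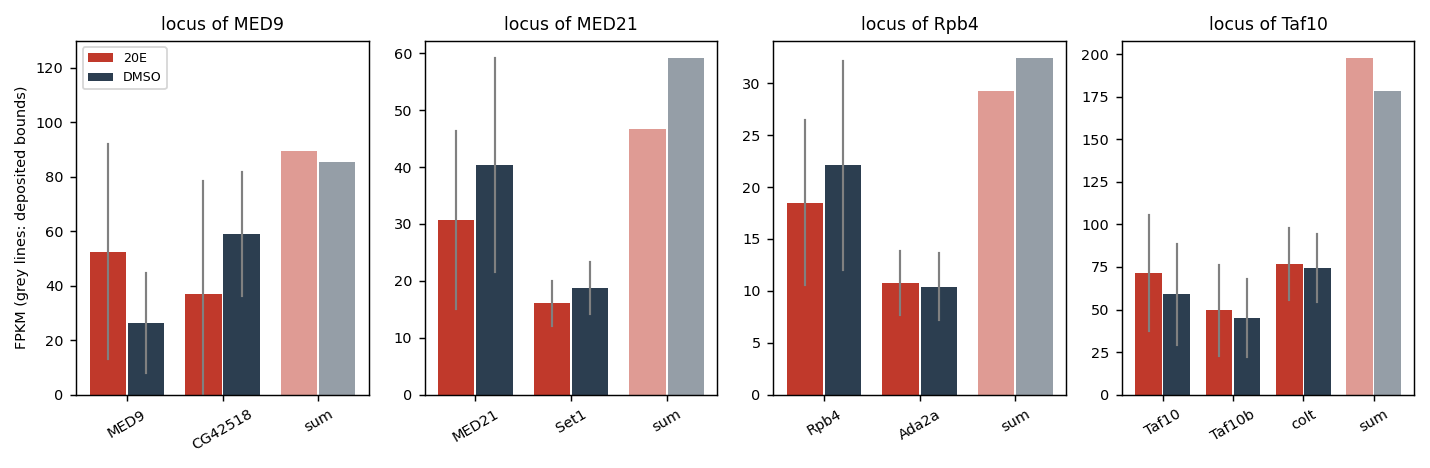
FPKM in 20E (red, left) and DMSO (dark blue, right) of the genes in the loci of MED9, MED21, Rpb4 and Taf10, with grey lines from the deposited lower to upper bound and pale bars for the sum of each locus. MED9 and CG42518 differ in opposite directions while their sum is 89.6 FPKM in 20E and 85.5 FPKM in DMSO.

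Genes that share a locus also had wider bounds. The distance from the FPKM to its upper bound, as a percent of the FPKM, had a median of 34.5% in 20E and 35.5% in DMSO over the 35 genes, and of 22.4% in 20E and 22.5% in DMSO over the 29 that stand alone. It was over 40% in 15 of the 35 in 20E and 14 of the 35 in DMSO, and in 1 of the 29 in both, TfIIA-S-2. The widest of the expressed genes was Taf7, with 88.2% in 20E and 80.3% in DMSO. At the median width, the DMSO and 20E bounds of a gene would part only from a difference of 2.10-fold for a gene that shares its locus and 1.58-fold for one that does not. Among all genes with at least 10 FPKM in DMSO, the medians were 28.0% in 20E and 27.8% in DMSO with a shared locus, and 22.1% in both without.

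**Figure D5:**
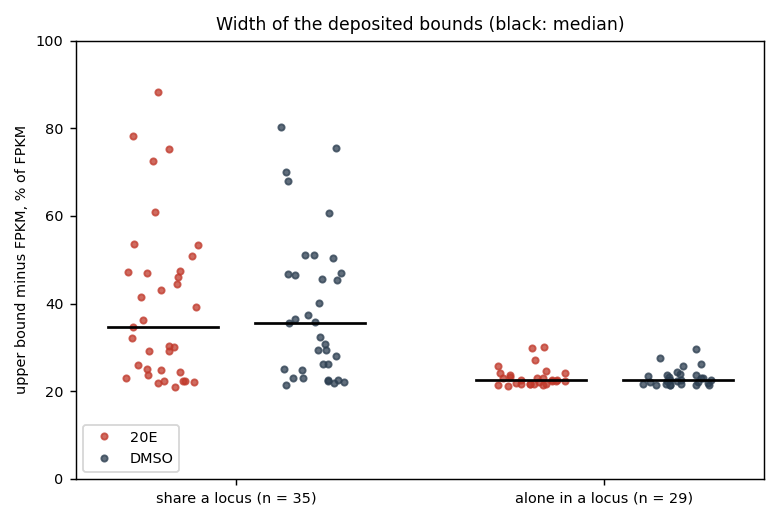
Distance from the FPKM to its deposited upper bound, in percent of the FPKM, for the 35 machinery genes that share a locus and the 29 that do not, with 20E in red left of DMSO in dark blue and the median as a black line (34.5% in 20E and 35.5% in DMSO with a shared locus, 22.4% in 20E and 22.5% in DMSO without). TfIIA-S-2 lies above the frame and is not drawn.

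Sharing did not always come with a difference. Taf7, CycC, MED27 and Taf11 had upper bounds more than 60% above their FPKM in both conditions, yet their log2 changes were -0.07, -0.08, -0.08 and 0.02. MED14 showed a log2 change of 0.01 beside CG13893, which had 51.8 FPKM in 20E and 68.4 FPKM in DMSO, with 2.65% of MED14 exon bases shared. Over all 35 genes the median size of the log2 change was 0.0724, and over the 29 it was 0.0762.

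The transcript table resolved the 64 genes into 103 transcripts, with 1 transcript for 42 genes and several for 22. Of these 22, 16 had the same single transcript above 50% of the gene's FPKM in both conditions, and in 10 it was above 90%. A transcript's share differed by more than 10 percentage points between conditions in 4 genes, MED21, MED6, Taf4 and TfIIA-L. The same count was not made over other genes, so whether 4 of 22 is frequent or rare is unknown. The table gives no bounds per transcript.

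The leading transcript differed between conditions in MED21, MED6 and Taf4. For MED21, transcript FBtr0113740 carried 32.6% of the FPKM in 20E and 70.5% in DMSO, and FBtr0113739 the remaining 67.4% in 20E and 29.5% in DMSO. They hold 859 and 863 exon bases, of which 104 and 108 are in no other transcript of the gene. For MED6, a head subunit, FBtr0082161 carried 40.5% in 20E and 74.7% in DMSO, and FBtr0082162 58.7% in 20E and 25.3% in DMSO, while MED6 itself had 19.01 FPKM in 20E and 19.9 FPKM in DMSO. These transcripts of MED6 hold 78 and 139 bases of their own among 1758 and 1819. Taf4 was spread over more transcripts. FBtr0075449 led in 20E, with 27.0% in 20E and 21.7% in DMSO, and FBtr0075448, whose start is shown above, led in DMSO, with 13.6% in 20E and 25.9% in DMSO. TfIIA-L, the precursor of the large TFIIA subunits, kept FBtr0085156 in front with 92.0% in 20E and 81.8% in DMSO.

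Differences were small in neighbouring machinery outside the chosen names too. Of 10 TFIIH genes looked for, 8 were found by symbol and 0 were past these limits in either direction. Their log2 changes ran from -0.11 for Cdk7, the kinase, to 0.28 for CycH, its cyclin. The 3 TBP family genes (Tbp, Trf and Trf2) ran from 0.01 to 0.13, and the 8 pausing and elongation genes, among them the NELF subunits, from -0.04 to 0.12, with 0 past the limits in both sets. ix had a log2 change of 0.24, above that of every Mediator gene of the 64 but MED9, and its bounds overlapped too.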

How the data were processed

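PolyA RNA of S2 cells was sequenced from 2 libraries per condition, and the other libraries of the series, which hold chromatin, were not used here. The authors deposited FPKM per gene and per transcript with 1 column per condition. How the 2 libraries entered a column, and the aligner and annotation used for it, are not given in the sources used here. The submitters' processing notes name bcl2fastq 2.17.1.14, Bowtie2 2.3.4.2, TopHat2, deepTools 3.0.2 and the builds dm3 and dm6 without roles, and the table's layout is that of Cuffdiff. Columns with the authors' own fold changes, test statistics and p and q values were not used.

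Genes were grouped by symbol into complexes. The log2 change used a pseudocount of 1 FPKM, and calls were made above a 25% higher value or under its reciprocal, a ratio of 0.8, at 2-fold, and where deposited bounds did not overlap. Genes with a mean of at least 1 FPKM are called expressed. Counts were made over all 15598 genes, without a test, because each condition has 1 column. The counting steps were tested on simulated data. Promoters, exons and coding lengths came from the Release 6 genome and BDGP6 annotation, matched by FlyBase identifier and never by coordinates, and 99.8% of 30618 annotated start codons read ATG. Values with bounds are given for the highest and lowest gene of each complex, the 8 largest positive and 8 largest negative differences with a mean of at least 1 FPKM, the kinase module, RpII215, RpII140, RpII33 and paralogue pairs. Genes named beyond this were chosen after their values were seen. The genes, lists and thresholds were chosen with earlier results of these data known. Scripts ran under Python 3.11.15 with Matplotlib 3.10.9, pandas 2.3.3 and NumPy 2.4.6.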

Additional observations from a re-analysis of the deposited data

How the results depend on the processing

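No paired analysis was possible because the deposited tables hold 1 column per condition, so neither a fit with the replicate number nor one leaving out each library could be run. With a pseudocount of 0.1 FPKM, genes more than 25% higher in 20E came to 2 and genes past 2-fold higher to 1, the added gene being TfIIA-S-2, whose bounds reach 0 in both conditions. With a limit of 1.5-fold, genes lower in 20E came to 0. Among genes alone in their locus, a set chosen after seeing the data, 0 were more than 25% higher and 0 under a ratio of 0.8. The shares over all genes were 2.49% and 2.01%, and for so few genes counts of 0 lie near them. Summed over its locus, also chosen after seeing the data, MED9 had a log2 change of 0.07 and MED21 of -0.33. With other pseudocounts, filters, scaling to the median change or transcript sums, the median log2 change of the 64 genes lay between 0.0164 and 0.0188. Of 58 alternative values, 52 stayed the same: counts within 1.5 times, levels, spreads and changes within the width of the deposited bounds. The locus sums of MED9 and MED21 were judged by the limits of 25% higher and 0.8 instead. The 52 say little, because many alternatives could not differ. Transcript sums match the gene values, and no gene of Pol II, TFIID, the general factors or Mediator averages under 1 FPKM. For changes and spreads the allowed width was 0.304 on the log2 scale, far above the median change. Depth is unknown, and at the median width of the bounds a gene alone in its locus needs a difference of 1.58-fold for them to part, genes with narrower bounds less.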
